A study of Mus musculus with 4 samples.

Results

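The 10 genes S100a8, S100a9, Lcn2, Slpi, Ngp, Camp, Ltf, Mmp8, Mmp9 and Retnlg were followed through liver mononuclear cells of mice with ConA-induced hepatitis. Members of neutrophil granules or alarmins, they are 10 of the 31053 genes in the deposited matrices, were taken by symbol for their known place among the abundant products of neutrophils, and were found in all 4 libraries. Single cells were measured with the 10x Genomics 5′ assay, and each value below is a count of unique molecular identifiers (UMIs), which count RNA molecules, so that gene length does not enter. The livers were those of C57BL/6 mice aged 8 to 10 weeks. The Naïve library came from untreated mice. The other 3 came from mice given concanavalin A (ConA), a plant lectin that activates T cells and inflames the liver, followed by vehicle (ConA+Veh), TCDD (ConA+TCDD) or FICZ (ConA+FICZ), with cells taken 24 hours after ConA. TCDD and FICZ are both ligands of the aryl hydrocarbon receptor, a transcription factor that senses small molecules. There was 1 library per condition, the number of mice behind each library was not given in the sources used here, and cells were enriched by enzymatic dissociation and a Percoll gradient, a step that also sets how many neutrophils are kept. No difference between conditions could therefore be tested. The intervals below are 95% limits for counting error only (exact Poisson for levels, exact binomial for shares and ratios), and cover neither the spread between cells nor that between animals.

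Neutrophils make their granule proteins in sequence as they mature in the bone marrow. Azurophil granule genes such as Mpo and Elane are read first, the specific granule genes Ltf, Camp, Ngp and Lcn2 follow under the transcription factor C/EBP epsilon (Cebpe), and gelatinase granule genes such as Mmp9 come late. S100a8 and S100a9 form calprotectin, a calcium- and zinc-binding alarmin that fills the neutrophil cytosol. Lcn2 binds bacterial siderophores and is also an acute phase product of hepatocytes, Camp gives a cathelicidin peptide, Ltf is the iron-binding lactoferrin, Ngp is a cystatin-like granule protein, Mmp8 and Mmp9 are a collagenase and a gelatinase, Slpi inhibits serine proteases such as elastase, and Retnlg is a resistin-like secreted protein.

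The genes lie in a few neighbourhoods of the genome (GRCm38, GENCODE vM21, all protein coding). S100a8 (chr3:90668978-90670035, plus strand) and S100a9 (chr3:90692632-90695721, minus strand) are 22.6 kb apart. Camp (chr9:109847379-109849617, minus), Ngp (chr9:110419747-110423012, plus) and Ltf (chr9:111019271-111042767, plus) share a stretch of chromosome 9 in which Camp and Ngp lie 570.1 kb apart and Ngp and Ltf 596.3 kb apart. Mmp8 (chr9:7558456-7568485, plus) is far from them on the same chromosome. Lcn2 (chr2:32384633-32388252, minus), Slpi (chr2:164354070-164389095, minus) and Mmp9 (chr2:164940780-164955850, plus) are on chromosome 2, and Retnlg (chr16:48872621-48874496, plus) is on chromosome 16.

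The sequences of the alarmin pair and of the Ngp, Camp and Ltf trio are shown because the members of each group are described side by side in the data that follow. Each is the 250 bases before the gene's start in RefSeq (GRCm38.p6), 5′ to 3′ on the gene's strand, and capitals mark matches to a C/EBP-type motif, TTGCNNAA or its reverse complement TTNNGCAA, searched on both strands. S100a8 is chr3:90668821-90669070 (plus strand), S100a9 chr3:90695722-90695971 (minus), Ngp chr9:110419558-110419807 (plus), Camp chr9:109849457-109849706 (minus) and Ltf chr9:111019042-111019291 (plus). The RefSeq and GENCODE starts differ for some of these genes. The windows of S100a8, Ngp, Camp and Ltf therefore reach into the genes as placed by GENCODE above, and only that of S100a9 lies wholly before its gene.
S100a8: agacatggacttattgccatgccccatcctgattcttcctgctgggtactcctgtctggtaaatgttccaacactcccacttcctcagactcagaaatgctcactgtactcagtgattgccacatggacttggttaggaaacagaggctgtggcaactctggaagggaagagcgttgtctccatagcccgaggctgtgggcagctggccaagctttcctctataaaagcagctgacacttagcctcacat
S100a9: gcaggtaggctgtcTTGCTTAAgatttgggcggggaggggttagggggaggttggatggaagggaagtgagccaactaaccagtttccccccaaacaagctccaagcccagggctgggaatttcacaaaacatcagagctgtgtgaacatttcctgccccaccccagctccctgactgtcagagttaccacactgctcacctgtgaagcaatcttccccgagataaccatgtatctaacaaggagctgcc
Ngp: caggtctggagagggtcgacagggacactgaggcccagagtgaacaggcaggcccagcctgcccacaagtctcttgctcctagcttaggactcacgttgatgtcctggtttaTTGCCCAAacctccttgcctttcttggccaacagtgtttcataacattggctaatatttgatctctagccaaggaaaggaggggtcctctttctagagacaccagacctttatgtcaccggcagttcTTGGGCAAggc
Camp: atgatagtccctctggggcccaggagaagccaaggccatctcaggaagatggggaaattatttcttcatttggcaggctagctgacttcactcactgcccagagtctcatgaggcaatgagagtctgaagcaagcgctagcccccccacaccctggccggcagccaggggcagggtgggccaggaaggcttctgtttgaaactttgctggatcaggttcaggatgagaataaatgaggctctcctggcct
Ltf: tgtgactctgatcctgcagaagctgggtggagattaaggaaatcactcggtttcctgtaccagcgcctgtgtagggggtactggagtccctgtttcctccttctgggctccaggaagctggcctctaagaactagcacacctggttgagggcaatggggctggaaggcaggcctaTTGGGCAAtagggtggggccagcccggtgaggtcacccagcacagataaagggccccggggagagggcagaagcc
The first base of the match lay 236 bases before the RefSeq start in S100a9, 138 and 11 bases before it in Ngp, and 75 bases before it in Ltf, and these letters were not found in the windows of S100a8 and Camp. The Ngp match at 11 bases lies within the gene as placed by GENCODE. Of the 9 members with a promoter in the RefSeq table, 7 held the motif, the others being Lcn2 at 216, Slpi at 241, Mmp8 at 19 and Retnlg at 246 bases, against 9.55% of 27025 mouse promoter windows of the same length. Mmp9 had no entry. A match of letters is a description of the sequence and not evidence of binding.

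A cell was called a neutrophil when it held UMIs of at least 5 of 12 neutrophil markers, none of them a member of the gene set (Csf3r, Cxcr2, Il1r2, Hdc, Trem1, Clec4d, Stfa2l1, Asprv1, Ly6g, G0s2, Mxd1 and Fpr1), more of these than of progenitor markers, and at most 1 marker of any other cell type, or 4 for the hepatocyte list. The libraries held 2086, 2779, 1880 and 2555 cells with medians of 2161, 3984, 3761.5 and 3147 UMIs (untreated, vehicle, TCDD and FICZ, the order kept throughout). The gate took 21, 88, 34 and 242 neutrophils, or 1.01% (0.624 to 1.53), 3.17% (2.55 to 3.89), 1.81% (1.26 to 2.52) and 9.47% (8.36 to 10.7) of the cells. Among these gate markers the decoy receptor Il1r2 was found in 90.1% to 91.2% of the gated cells of each library, Hdc in 89.8% to 95.2%, Csf3r in 62.5% to 85.7% and Ly6g in 28.6% to 36.4%, which the gate itself favours and which is no check of the label. S100a8, which the gate did not use, was found in 94.1% to 100% of them. A further 2, 21, 7 and 22 cells with enough neutrophil markers carried markers of another class as well and were set aside, and no doublet caller was run. Of the cell barcodes, 45 occurred in more than 1 library, among them those of 1 ConA+TCDD and 1 ConA+FICZ neutrophil. At the edge of the gate, the 29 cells with exactly 5 markers held a median of 290 UMIs of S100a8 and S100a9 together, or 19.6% of a cell's UMIs, the 13 cells with 4 markers held 204 UMIs, and the 16 cells with 3 markers held 0.

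The 10 genes made up a large share of neutrophil RNA. Together they took 21.5%, 29.7%, 28.4% and 27.3% of all neutrophil UMIs, while in whole libraries they took 0.188%, 0.455%, 0.256% and 1.19%. Gated neutrophils held 90.1%, 76.8%, 75.5% and 87.1% of each library's UMIs of these genes. Neutrophils were shallow cells, with medians of 2078, 2278, 1762.5 and 2148 UMIs.

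**Figure D1:**
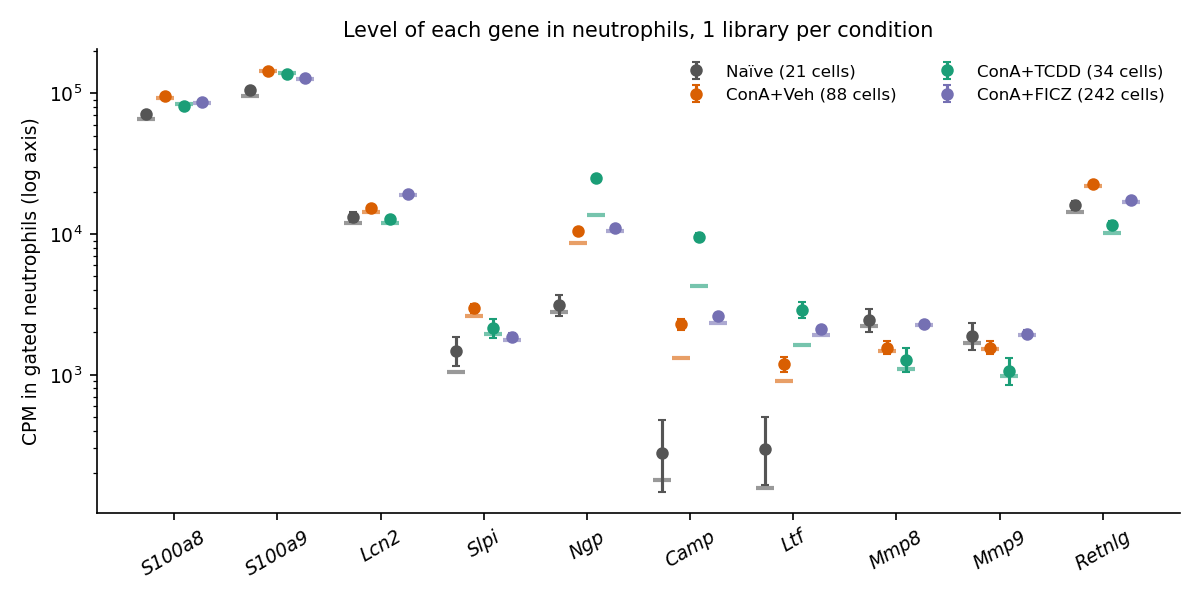
Level of each of the 10 genes in gated neutrophils, in UMIs per 1000000 neutrophil UMIs on a log axis, with 1 point per library and exact Poisson 95% bars that cover counting error only; short dashes give the level without the cell holding the most UMIs of that gene. S100a9 and S100a8 lie highest in all 4 libraries. The dashes of Ngp and Camp fall furthest from their points in ConA+TCDD, and that of Ltf in Naïve.

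The calprotectin genes were the most abundant members in every library. S100a9 stood at 104972, 144141, 136413 and 127994 UMIs per 1000000 neutrophil UMIs (counts per 1000000, CPM), with intervals no wider than that of Naïve relative to its level, 102056 to 107950. S100a8 stood at 71392 (68991 to 73855), 95142 (93874 to 96422), 81665 (79723 to 83644) and 86603 (85866 to 87345) CPM. Both were lowest in Naïve and highest in ConA+Veh, and the intervals of neighbouring libraries did not overlap for either gene. S100a9 exceeded S100a8 in each library, by 1.47, 1.52, 1.67 and 1.48 UMIs per S100a8 UMI. In single neutrophils the median was 158, 178, 77.5 and 126.5 UMIs of S100a8 and 231, 289.5, 199.5 and 242.5 UMIs of S100a9, and the pair took a median of 16.1%, 21.5%, 17.9% and 18.9% of a cell's UMIs, with up to 42.0% in 1 ConA+TCDD cell.

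Lcn2, of the specific granules, stood highest in ConA+FICZ, at 19178 CPM (18831 to 19528), against 13295 (12271 to 14382), 15214 (14710 to 15731) and 12746.5 (11986 to 13543) in the libraries before it. The Naïve and ConA+TCDD intervals overlapped. Median counts per cell were 20, 23, 11 and 30 UMIs, so the siderophore-binding gene was read in most neutrophils and not in a few of them. Neutrophils of ConA+FICZ also held 180 UMIs of 7 summed hepatocyte markers, against 4, 13 and 0 in the other libraries and beside their own 11691 UMIs of Lcn2, and the part of this in the Lcn2 level was not tested.

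The other specific granule genes were uneven among cells. Ngp stood at 3121 (2635 to 3670), 10575 (10155 to 11007), 25030 (23960 to 26136) and 11030 (10768 to 11297) CPM. The cathelicidin gene Camp was at 278 (148 to 475), 2287 (2094 to 2492), 9533 (8876 to 10224) and 2597 (2470 to 2728) CPM. Ltf, encoding lactoferrin, was at 299 (164 to 502), 1190 (1052 to 1341), 2885 (2530 to 3277) and 2110 (1996 to 2228) CPM. All 3 were lowest in Naïve and highest in ConA+TCDD, while the median neutrophil held 0 UMIs of Camp and of Ltf in all 4 libraries and 5, 0, 0 and 5 UMIs of Ngp. The level of Camp and Ltf was therefore carried by a minority of cells. Camp reached 10 UMIs in 0 of 21, 7 of 88, 5 of 34 and 29 of 242 cells, which is 0% (up to 16.1), 7.95% (3.26 to 15.7), 14.7% (4.95 to 31.1) and 12.0% (8.17 to 16.8) of them. These intervals overlapped among all 4 libraries. The highest cell held 5, 223, 485 and 188 Camp UMIs.

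A single cell held much of the ConA+TCDD level. This neutrophil of that library, with 12447 UMIs, 5 neutrophil markers and 4 progenitor markers, held 1100 of the 2056 Ngp UMIs, 485 of the 783 Camp UMIs (61.9%) and 123 of the 237 Ltf UMIs (51.9%), and 0 UMIs of Mmp8, Mmp9 and Retnlg. Leaving out the cell with the most UMIs of the gene in each library gave 2815, 8658, 13717 and 10578 CPM of Ngp, 178, 1320, 4276 and 2316 CPM of Camp, and 157, 907, 1636 and 1906 CPM of Ltf, so that Ltf was then highest in ConA+FICZ.

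**Figure D2:**
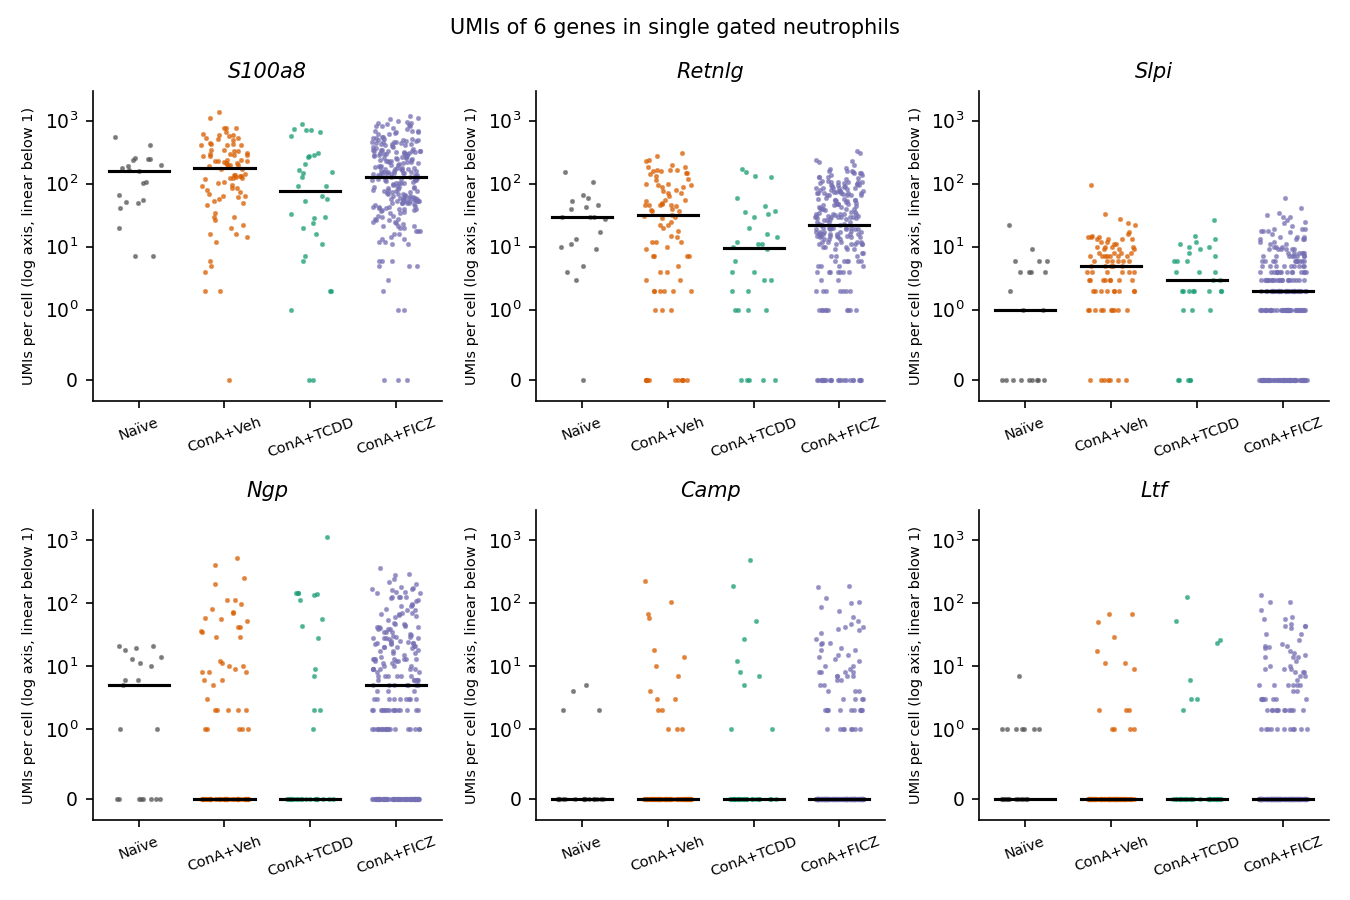
UMIs of 6 members in each gated neutrophil (1 point per cell, with 21, 88, 34 and 242 cells in the columns from untreated to FICZ), on an axis that is linear near 0 and logarithmic above, with black bars at the medians. S100a8 and Retnlg form 1 broad cloud per library, whereas Camp and Ltf have medians of 0 and a scatter of high cells, among them the ConA+TCDD cell with 485 Camp UMIs.

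The metalloproteinase genes were low and spread among the cells. Mmp8, the neutrophil collagenase, was at 2437 (2010 to 2927), 1557 (1398 to 1728), 1278 (1046 to 1547) and 2297 (2178 to 2420) CPM, with medians of 2, 2, 1 and 4 UMIs a cell. Mmp9, the gelatinase, was at 1881 (1509 to 2317), 1561 (1403 to 1733), 1059 (848 to 1306) and 1950 (1841 to 2064) CPM, with medians of 3, 3, 1.5 and 4 UMIs. Both had their lowest level in ConA+TCDD, although the Mmp8 intervals of ConA+TCDD and ConA+Veh overlapped. The Naïve and ConA+FICZ intervals overlapped for each gene.

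Slpi, the elastase inhibitor, was at 1475 (1148 to 1867), 2976 (2756 to 3210), 2143 (1838 to 2484) and 1863 (1757 to 1975) CPM, highest in ConA+Veh, and the Naïve and ConA+FICZ intervals overlapped. A Slpi UMI was found in 57.1%, 92.0%, 85.3% and 75.6% of the neutrophils and, after thinning every cell to 500 UMIs, in 28.6% (11.3 to 52.2), 60.2% (49.2 to 70.5), 55.9% (37.9 to 72.8) and 43.8% (37.5 to 50.3). Retnlg stood at 16010 (14884 to 17199), 22750 (22133 to 23381), 11651 (10924 to 12413) and 17371 (17042 to 17706) CPM, with medians of 29, 31.5, 9.5 and 22 UMIs a cell. It was highest in ConA+Veh and lowest in ConA+TCDD, and a Retnlg UMI was found in 95.2%, 87.5%, 85.3% and 90.1% of the neutrophils, or 90.5% (69.6 to 98.8), 80.7% (70.9 to 88.3), 67.6% (49.5 to 82.6) and 84.3% (79.1 to 88.6) after thinning.

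The first comparison asked how neutrophils of ConA hepatitis differed from those of untreated liver (ConA+Veh over Naïve). Of 655 genes with at least 50 UMIs summed over the 2 libraries, 63 were 2-fold or more higher (9.62%) and 63 were 2-fold or more lower (9.62%). Among the 10 members 4 were 2-fold or more higher, namely Camp with a log2 ratio of 3.04 (2.25 to 3.96), Ltf with 1.99 (1.22 to 2.88), Ngp with 1.76 (1.52 to 2.01) and Slpi with 1.01 (0.65 to 1.39), and 0 were as much lower. Slpi lost 2-fold in 5 of 12 alternatives, at 0.55 to 0.94, and Mmp8 passed 2-fold lower, at -1.29, with other-class cells kept. The Camp and Ltf ratios stood on 13 and 14 UMIs in the 21 Naïve neutrophils. S100a8 had a log2 ratio of 0.41 (0.36 to 0.47), S100a9 0.46 (0.41 to 0.50), Retnlg 0.51 (0.40 to 0.62) and Lcn2 0.19 (0.07 to 0.32). Mmp8 was lower, at -0.65 (-0.96 to -0.33), and the interval of Mmp9 held 0, at -0.27 (-0.61 to 0.08). The members' median was 0.48 where that of all 655 genes was -0.12. Levels are shares of a total of which the members took 21.5% in Naïve and 29.7% in ConA+Veh, so these medians are not independent. The smaller ratios of the members depended on the gate. With the cells carrying markers of another class kept, Lcn2 came to -0.55, S100a8 to -0.22, S100a9 to -0.13 and Retnlg to -0.02, and Lcn2 came to -0.13 with the first version of the gate. That version took 21 Naïve and 89 ConA+Veh cells where the main gate took 21 and 88, and the part of single cells in this change was not tested.

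TCDD after ConA was set against vehicle after ConA in the second comparison. Of 712 genes, 18 were 2-fold or more higher (2.53%) and 15 were 2-fold or more lower (2.11%). Among the 10 members 3 were 2-fold or more higher: Camp at 2.06 (1.90 to 2.22), Ltf at 1.28 (1.02 to 1.54) and Ngp at 1.24 (1.16 to 1.33) on the log2 scale. Without the 1 ConA+TCDD cell described above, and with all ConA+Veh cells kept, these came to 0.90, 0.46 and 0.38. Then 0 of the 3 passed 2-fold. In ConA+Veh, too, 1 cell held 223 of the 517 Camp UMIs. With the cell richest in the gene left out of both libraries the ratios were 1.70, 0.85 and 0.66, so Camp stayed past 2-fold. Another ConA+TCDD cell, with 3552 UMIs, still held 186 of that library's 783 Camp UMIs. The Camp ratio without that cell as well was not computed. Retnlg stood just inside 2-fold, at -0.97 (-1.07 to -0.87), and passed it in 5 of 13 alternative settings, at -1.16 when the cells with barcodes found in several libraries were left out, whereas without the 12447-UMI cell it came to -0.73. Mmp9 was at -0.56 (-0.92 to -0.22), Slpi at -0.47 (-0.72 to -0.23), Lcn2 at -0.26 (-0.36 to -0.16) and S100a8 at -0.22 (-0.26 to -0.18). S100a9 at -0.08 (-0.11 to -0.05) was nearly level, and the interval of Mmp8 held 0. The members' median was -0.24 and that of all 712 genes -0.03.

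The FICZ library was set against the same ConA+Veh neutrophils, so both comparisons share their control. Of 1705 genes, 124 were 2-fold or more higher (7.27%) and 42 were 2-fold or more lower (2.46%), and 0 of the 10 members passed 2-fold in either direction. Ltf passed it with 6 neutrophil markers (1.09), with other-class cells kept (1.57) and with the first version of the gate (1.002), and Camp (1.04) and Mmp8 (1.10) passed it with other-class cells kept. Ltf had a log2 ratio of 0.83 (0.64 to 1.02), Mmp8 0.56 (0.39 to 0.73), Lcn2 0.33 (0.28 to 0.39), Mmp9 0.32 (0.15 to 0.50) and Camp 0.18 (0.04 to 0.33). Slpi was lower at -0.68 (-0.81 to -0.54), as were Retnlg at -0.39 (-0.44 to -0.34), S100a9 at -0.17 (-0.19 to -0.15) and S100a8 at -0.14 (-0.16 to -0.11). With other-class cells kept, S100a8 came to 0.43, S100a9 to 0.40 and Retnlg to 0.13, and over all 12 alternatives Camp went from -0.45 to 1.04, so these directions depended on the settings. The interval of Ngp held 0, at 0.06 (-0.01 to 0.13). The median of the 1705 genes was 0.13 and that of the members 0.12, so a member near 0 lay slightly below the typical gene. FICZ and TCDD were not compared with each other, because the FICZ dose is not given in the sources used here.

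**Figure D3:**
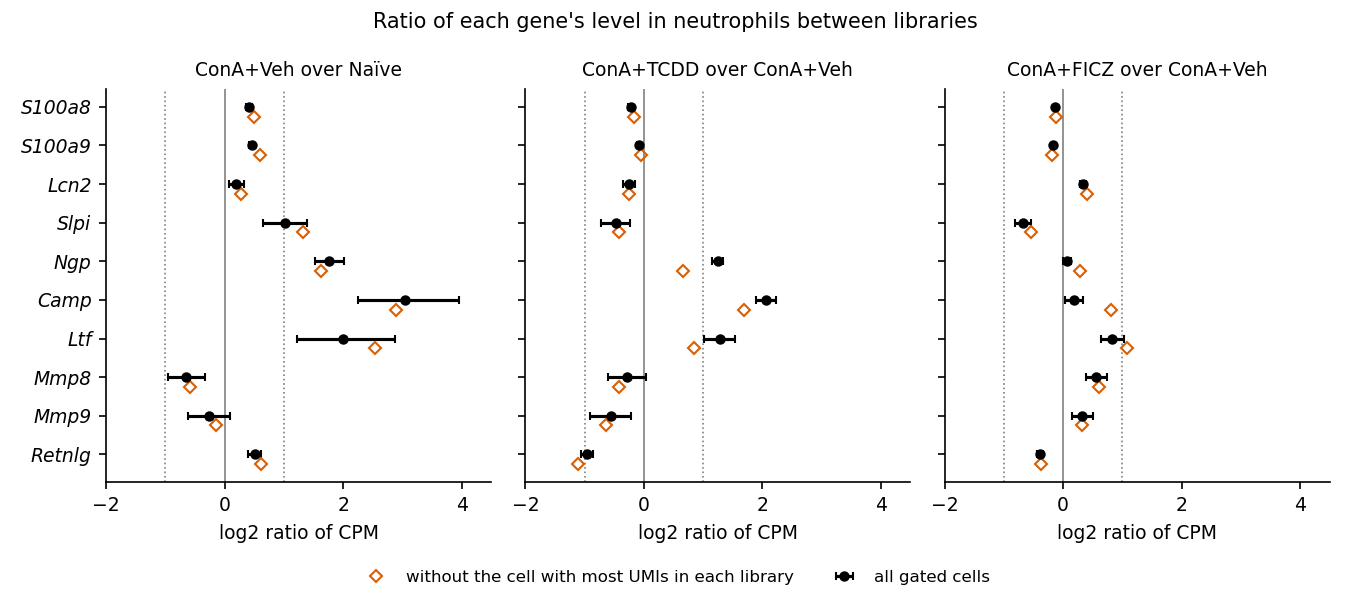
Log2 ratio of each member in gated neutrophils for the 3 comparisons (vehicle over untreated, then TCDD and FICZ each over vehicle), with exact binomial 95% bars for counting error only; open diamonds leave out the cell with the most UMIs of the gene in each library, and dotted lines mark 2-fold. Camp, Ltf and Ngp lie past 2-fold in the first 2 panels, and in the ConA+TCDD panel the open diamonds of Ngp and Ltf fall back inside the lines.

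Cells high in Camp were nearly all high in Ngp as well, but not the reverse. Over the 4 libraries 41 of 385 neutrophils held at least 10 UMIs of Camp, a level chosen after the values were seen. Of these 41 cells, 40 held at least 10 UMIs of Ngp, 31 of Ltf, 30 of both and 41 of S100a8. Ngp reached 10 UMIs in 140 cells, of which 40 were the cells high in Camp, and Ltf in 40 cells, of which 39 were high in Ngp. The cells high in Camp were deeper than the rest, with a median of 4062 UMIs against 2013, and the part of depth in this was not tested. Naïve had 0 such cells of 21, while 8 of its 21 neutrophils reached 10 UMIs of Ngp.

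Neutrophils were also split by the specific granule regulator itself. The 56 neutrophils with a Cebpe UMI (1, 8, 6 and 41 by library) were set beside the 329 without, whose median was 2016 UMIs against 2985.5. Camp had a log2 ratio of 3.02 between them, Ltf 2.39 and Ngp 1.62, whereas Slpi was at -0.86 and Retnlg at -0.39. S100a8, S100a9, Lcn2, Mmp8 and Mmp9 lay between 0.08 and 0.55. Within the 3 ConA libraries Camp was at 2.27, 4.49 and 2.59, Slpi at -0.71, -0.96 and -0.85, and Retnlg at 0.08, -0.84 and -0.43, so that the pooled Retnlg value did not hold in ConA+Veh. The ConA+TCDD values include the cell with 12447 UMIs. It held 485 of the 723 Camp UMIs and 0 of the 220 Retnlg UMIs of that library's cells with Cebpe. The 288 cells with a UMI of Cxcr2, a chemokine receptor of mature neutrophils, were placed against the 97 without, and held less Camp (log2 ratio -2.08), Ngp (-1.13) and Ltf (-0.93), with the other 7 members between 0.03 and 0.28 over all libraries. Within the 3 ConA libraries Camp was at -1.82, -4.44 and -1.16, whereas Slpi was at -0.35, 0.91 and 0.46 and S100a8 at -0.09, -0.61 and 0.24. The 12447-UMI cell held 485 of the 742 Camp UMIs of the ConA+TCDD cells without Cxcr2. In Naïve, with 19 cells against 2, all UMIs of Camp, Ngp and Ltf were in the cells with Cxcr2. Neutrophils held 2, 15, 16 and 66 Cebpe UMIs in all. The split was made after the values were seen, and the cells are not replicates, so it is a description of these libraries.

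Other genes of the same families were read in the same neutrophils from lists by function. Beside these counts, 9.62% of all genes deep enough were 2-fold or more higher in ConA+Veh over Naïve, and 9.62% lower. Under TCDD the shares were 2.53% higher and 2.11% lower, and under FICZ 7.27% and 2.46%. Of the other specific and gelatinase granule genes, 8 of 12 were deep enough in ConA+Veh over Naïve, where 0 were 2-fold or more higher and 2 lower (the integrin gene Itgam at -1.27 and the sheddase gene Adam8 at -1.12). For TCDD 8 were deep enough, and the chitinase-like Chil3 was higher, at 1.27. For FICZ 11 were, and Itgam was higher, at 1.21. Among other S100 and alarmin genes the nuclear alarmin Hmgb1 was higher in ConA+Veh than in Naïve, at 2.56 (0.64 to 5.64), from 57 and only 2 UMIs. It was higher again in ConA+TCDD than in ConA+Veh, at 1.15 (0.56 to 1.74) from 46 and 57 UMIs, together with Hmgb2 at 1.08 (0.69 to 1.48). Hmgb1 was lower in ConA+FICZ than in ConA+Veh, at -1.38 (-1.93 to -0.83). These were the only S100 and alarmin genes past 2-fold among 6, 6 and 7 deep enough. The ConA+TCDD levels of Chil3, Hmgb1 and Hmgb2 include the cell with 12447 UMIs, and its part in them was not tested.

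A list of protease inhibitors joined the stefins, which act on cysteine proteases, with the whey acidic proteins Wfdc17 and Wfdc21. In ConA+Veh over Naïve, 2 of 5 were 2-fold or more higher, Cstb at 1.26 and BC100530 with 0 and 207 UMIs. In ConA+TCDD over ConA+Veh, 2 of 5 were lower, BC100530 at -4.65 and Stfa2l1, itself a gate marker, at -1.08. In ConA+FICZ over ConA+Veh, 3 of 8 were higher (Stfa3 at 2.38, Stfa2 at 1.77 and Stfa1 with 0 and 281 UMIs) and BC100530 was lower, at -2.16. Wfdc17 and Wfdc21 were deep enough in each comparison and stayed inside 2-fold. Apart from Cstb, these stefin genes are close copies of one another, so reads could be split among them unevenly and each value is uncertain. Of receptors and inhibitors of the members 2, 3 and 4 were deep enough, of the transcription factors 2, 2 and 4, and of the azurophil genes 0, 0 and 1, and 0 of these passed 2-fold in any comparison. No gene of the resistin family other than Retnlg was deep enough.

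Granulocyte progenitors were gated by UMIs of at least 4 of 9 markers (Mpo, Elane, Prtn3, Ctsg, Ms4a3, Prss57, Cebpe, Fcnb and Gfi1) and fewer than 3 phagocyte markers. Of other cell types, apart from neutrophils, at most 2 markers were allowed, or 4 for the hepatocyte list. Cells already called neutrophils were left out, among them the ConA+TCDD cell with 12447 UMIs and 4 progenitor markers. The gate took 0, 18, 15 and 6 cells, with medians of 21733, 23516 and 17900.5 UMIs where cells were found. The 0 of 2086 Naïve cells allow a share of up to 0.177%. The azurophil genes were present, with Prtn3 in all 39 cells, Mpo in 15, 14 and 5 cells and Elane in 16, 14 and 4. Fcnb was at 0 in all of them, Cebpe was found in 3, 1 and 1 cells and Gfi1 in 2, 1 and 0, so that the label rests on the azurophil genes. In a graph clustering made without the members, 26 of the 39 cells fell in a cluster of 651 cells whose median cell held 0 progenitor markers, and these values are therefore those of cells chosen by the marker rule and not of a separate cluster. The name granulocyte progenitor is that of the marker list, and whether the cells belong to the granulocyte lineage was not tested. A further 16, 10 and 14 cells with progenitor markers also held 3 or more phagocyte markers and were kept apart.

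Of the 10 members 5 were at 0 in these progenitors. Ngp, Camp, Ltf, Mmp9 and Retnlg had 0 UMIs in all 39 progenitors and in all 40 cells with phagocyte markers. The ConA+TCDD cell with 12447 UMIs held 1100 of Ngp, 485 of Camp and 123 of Ltf. It would have met the progenitor rule had it not been called a neutrophil. The counts of 0 for Ngp, Camp and Ltf in ConA+TCDD therefore depend on that order of the gates. With 3 UMIs taken as the limit of a count of 0 in each library, the neutrophil level was at least 2916-fold, 1178-fold and 872-fold higher for Retnlg (ConA+Veh, ConA+TCDD, ConA+FICZ), at least 1355-fold, 2531-fold and 553-fold for Ngp, 293-fold, 964-fold and 130-fold for Camp, 152-fold, 292-fold and 106-fold for Ltf, and 200-fold, 107-fold and 97.9-fold for Mmp9.

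The alarmin genes were nearly absent as well. S100a8 was at 120, 547 and 0 CPM in the progenitors and S100a9 at 41.6, 129 and 0 CPM, and 1 ConA+TCDD cell held 162 of the 166 S100a8 UMIs of its library. In the cells with phagocyte markers S100a8 was at 2242, 2234 and 224 CPM. There S100a8 exceeded S100a9, with 0.694, 0.362 and 0.165 UMIs of S100a9 per S100a8 UMI, where neutrophils had 1.47 to 1.67. Slpi was the member nearest its neutrophil level, at 338, 748 and 133 CPM in the progenitors, which was 11.4% (9.34 to 13.7), 34.9% (28.6 to 42.8) and 7.13% (4.34 to 11.1) of that level, and Lcn2 was at 229, 185 and 106 CPM. Mmp8 was at 0, 36.3 and 6.64 CPM, from 0, 11 and 1 UMIs. The 10 genes together had log2 ratios of -8.67, -7.43 and -10.12 to neutrophils, in the same order.

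**Figure D4:**
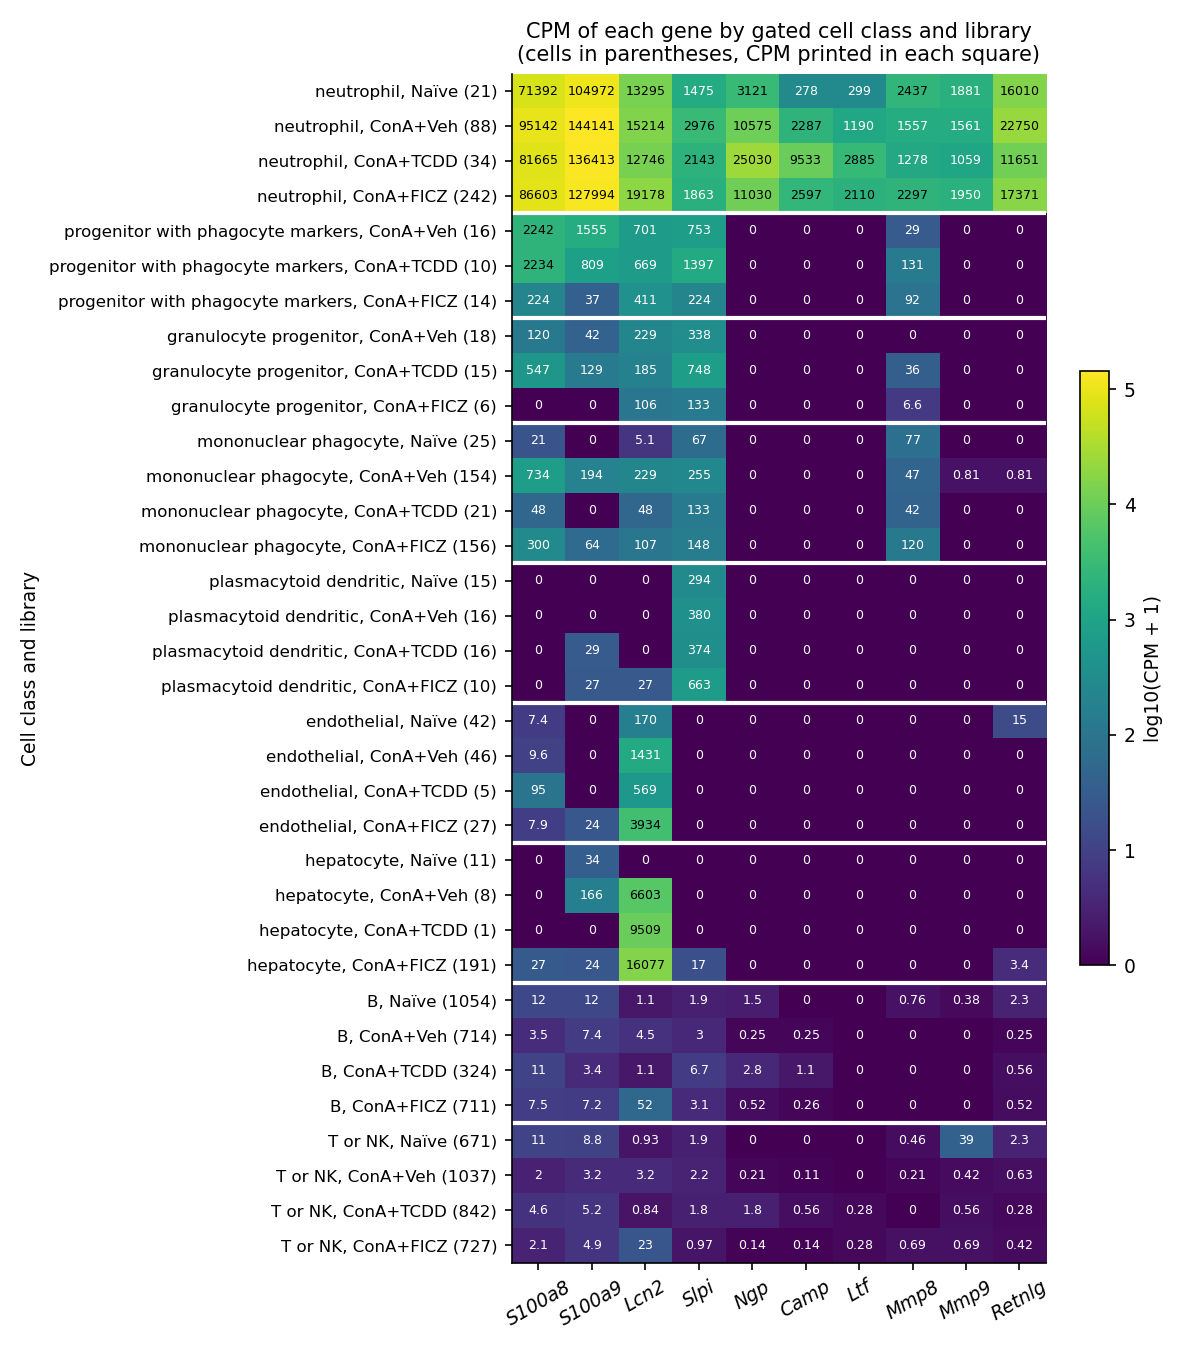
Level of each member (UMIs per 1000000 UMIs of the class, printed in each square and coloured on a log scale after adding 1) in each gated cell class and library, with the number of cells in parentheses. Within each library all 10 members are brightest in neutrophils, while Lcn2 is also bright in hepatocytes and endothelial cells.

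Outside the granulocyte gates a few members were also read. In mononuclear phagocytes (25, 154, 21 and 156 cells), S100a8 was at 20.6, 734, 48.5 and 299.7 CPM, from 4, 902, 8 and 338 UMIs. On the log2 scale the ConA+Veh level stood 5.16 (3.79 to 7.04) over that of Naïve, and ConA+TCDD stood at -3.92 (-5.14 to -2.93) from ConA+Veh. A single ConA+Veh cell held 300 of the 902 UMIs, and the level without it was 498 CPM. S100a9 was at 0, 194, 0 and 63.8 CPM, or 0.265 and 0.213 per S100a8 UMI in ConA+Veh and ConA+FICZ, unlike the ratio in neutrophils, and Ngp, Camp and Ltf were at 0 in all 4 libraries. The summed neutrophil markers in these cells were at 314, 417, 455 and 395 CPM. The phagocyte gate allowed fewer than 5 neutrophil markers in a cell, and the part of neutrophil RNA in these levels was not tested. Mmp8 was at 77.2, 47.2, 42.4 and 120 CPM in the same cells. Slpi was at 294, 380, 374 and 663 CPM in plasmacytoid dendritic cells (15, 16, 16 and 10 cells), above its level of 66.9 to 255 CPM in mononuclear phagocytes.

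Lcn2 was also read in liver cells that are not leukocytes. In hepatocytes (11, 8, 1 and 191 cells) it was at 0, 6603, 9509 and 16077 CPM, from 0, 119, 6 and 4690 UMIs. The ConA+TCDD value rests on 1 cell of 631 UMIs. All 191 hepatocytes of ConA+FICZ held a UMI of Lcn2, whereas 1 cell gave 96 of the 119 UMIs of ConA+Veh. In endothelial cells (42, 46, 5 and 27 cells) Lcn2 was at 170, 1431, 569 and 3934 CPM, from 23, 299, 12 and 496 UMIs, and at 17.0, 887, 0 and 2811 CPM without the highest cell of each library. The log2 ratio of ConA+Veh over Naïve there was 3.07 (2.46 to 3.75), and 5.70 without those cells, since 1 Naïve cell held 21 of the 23 UMIs. In endothelial cells the UMIs of Lcn2 per UMI of 7 summed hepatocyte markers were 1.92, 14.2, 2.40 and 33.1, against 0, 0.0909, 0.200 and 0.210 in the hepatocytes.

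Lymphocytes served as the class that should lack these transcripts. B cells (1054, 714, 324 and 711) and T or NK cells (671, 1037, 842 and 727) were joined into 1725, 1751, 1166 and 1438 lymphocytes. S100a8 gave 55, 33, 52 and 44 UMIs in them, in 55, 33, 51 and 43 cells, with at most 2 UMIs in any cell. That was 0.0161% (0.0121 to 0.0210), 0.00257% (0.00177 to 0.00361), 0.00711% (0.00531 to 0.00934) and 0.00458% (0.00333 to 0.00616) of the neutrophil level. After thinning to 500 UMIs, 0.870%, 0.286%, 0.858% and 0.626% of lymphocytes held an S100a8 UMI. S100a9 was at 0.0101%, 0.00308%, 0.00352% and 0.00444% and Retnlg at 0.0143%, 0.00228%, 0.00288% and 0.00260% of the neutrophil level. These 3 genes were spread thinly, 1 or 2 UMIs to a cell with 1 exception of 3 UMIs for S100a9, and each had its highest share in Naïve. The shares are per UMI, and Naïve lymphocytes were the shallowest. Their medians were 2144 UMIs in B cells and 2377 in T or NK cells, against 3645 to 4213 and 5105 to 5567 in the ConA libraries. By cells, S100a9 was found in 50 of 1725, 60 of 1751, 42 of 1166 and 57 of 1438 lymphocytes. The part of depth in the Naïve shares was not tested. Ngp gave 4, 3, 18 and 3 UMIs, Camp 0, 2, 6 and 2 and Ltf 0, 0, 2 and 2. Summed over Ngp, Camp and Ltf, lymphocytes held 26 UMIs in ConA+TCDD and 5 in ConA+Veh. The log2 ratio of the former over the latter was 2.97 (1.57 to 4.71). The UMIs of S100a9 per S100a8 UMI in lymphocytes were 0.927 (0.621 to 1.38), 1.82 (1.17 to 2.87), 0.827 (0.539 to 1.26) and 1.43 (0.959 to 2.15). In neutrophils they were 1.47, 1.52, 1.67 and 1.48. The source of these UMIs in lymphocytes was not tested.

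**Figure D5:**
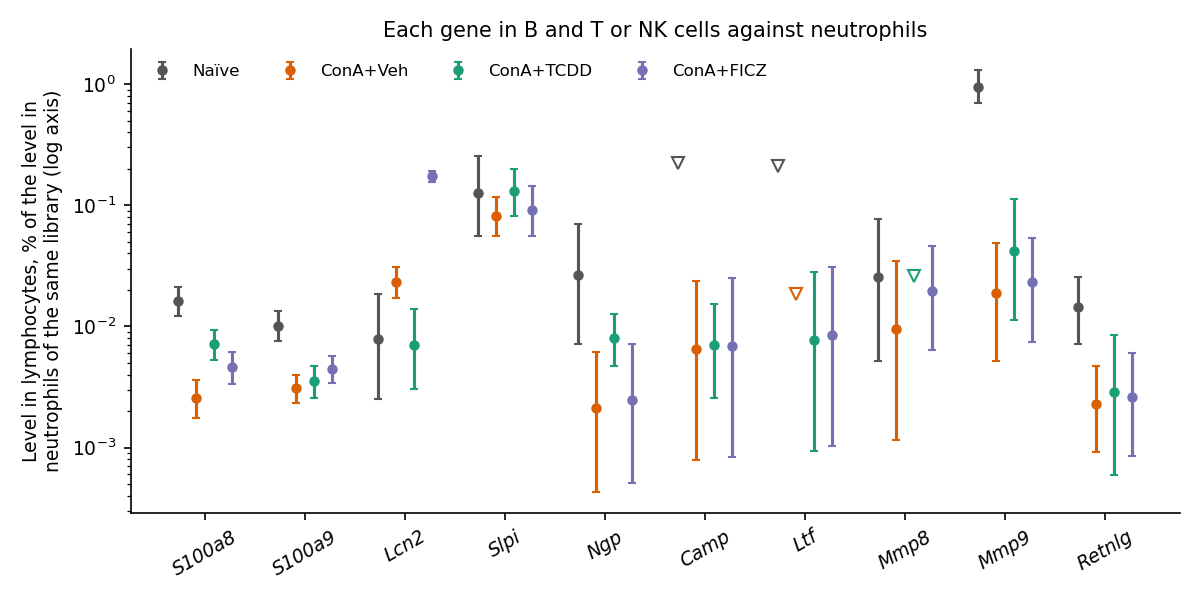
Level of each member in lymphocytes as a percent of its level in neutrophils of the same library (log axis, exact binomial 95% bars for counting error only); open triangles mark a count of 0, drawn at the share that 3 UMIs would give. S100a8 lies between 0.00257% and 0.0161%, and Mmp9 at 0.954% in Naïve and Lcn2 at 0.174% in ConA+FICZ lie far above it.

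Slpi lay above the alarmins in lymphocytes of all 4 libraries, at 0.127% (0.0559 to 0.256), 0.0821% (0.0560 to 0.116), 0.130% (0.0821 to 0.199) and 0.0920% (0.0552 to 0.144) of its neutrophil level. Its UMIs were few, 9, 33, 25 and 19, and single lymphocytes held up to 1, 4, 7 and 8 of them.

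Lcn2 in lymphocytes differed by library in another way. It gave 5, 48, 8 and 369 UMIs, or 0.00784%, 0.0234%, 0.00701% and 0.174% of the neutrophil level, and in ConA+FICZ it was found in 262 of 1438 lymphocytes, with up to 6 UMIs in a cell. B cells of ConA+FICZ were at 51.8 CPM and T or NK cells at 23.3 CPM. Summed hepatocyte markers were also highest there, at 63.8, 33.0, 1.68 and 186 CPM in B cells and 53.7, 18.6, 8.09 and 88.7 CPM in T or NK cells, and that library held 191 gated hepatocytes against 11, 8 and 1 in the others. The hepatocyte list was also part of the gate, which allowed a lymphocyte few of these markers. The UMIs of Lcn2 per hepatocyte marker UMI were 0.279 (0.237 to 0.326) in B cells, 0.263 (0.220 to 0.312) in T or NK cells and 0.210 (0.203 to 0.217) in hepatocytes of ConA+FICZ, and 64.95 in its neutrophils. In ConA+Veh the same ratio was 0.135 in B cells, 0.170 in T or NK cells, 0.0909 in hepatocytes and 265 in neutrophils. The part of hepatocyte RNA in the lymphocyte level was not tested.

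Mmp9 was the other exception. In Naïve T or NK cells it gave 85 UMIs, a level of 39.3 CPM or 2.09% of that in neutrophils, in 49 of 671 cells (7.30%) and with up to 5 UMIs in a cell. It was found in 4, 4 and 3 T or NK cells of the other libraries, and gave 1 UMI in the Naïve B cells. S100a8 was found in 1 of the 49 cells (2.04%) against 3.54% of the other Naïve T or NK cells, and S100a9, Retnlg and Csf3r in 0 of the 49. Cd3e was found in 87.8% of them against 62.4% of the other Naïve T or NK cells, and the chemokine receptor gene Cxcr6 in 75.5% against 20.7%, at medians of 2593 and 2336.5 UMIs. These comparison genes were chosen with the values known.

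All 10 members summed had log2 ratios of -12.17, -14.35, -13.95 and -12.51 in lymphocytes over neutrophils, and of -12.82, -14.72, -13.99 and -14.25 without Lcn2 and Mmp9. With those genes left out, Naïve, whose lymphocytes were the shallowest, held the highest share and ConA+FICZ stood between ConA+TCDD and ConA+Veh.

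The genes most like each member were found over 22 profiles of class and library with at least 20 cells, by Pearson correlation of log2(CPM + 10) among 9877 genes, given as a description since profiles of a library share its cells and depth. Trem1 was among the nearest to S100a8 (r = 0.98), Fpr1 to S100a9 (0.99), Clec4d to Slpi (0.99), Asprv1 to Mmp9 (0.98) and Ly6g to Retnlg (0.997), all of them markers used by the gate. The gates asked for such markers in neutrophils and limited them in the other classes, so high correlations of these markers with neutrophil genes were built in. Gm5483, a stefin-like gene, was among the nearest to Ngp (0.997), Camp (0.98) and Ltf (0.99). Slfn4 was nearest to Mmp8 (0.996). Lcn2 stood apart, with Lrg1 at 0.97, Ifit3b at 0.93 and Ifit3 at 0.92, and correlations of 0.66 to 0.76 with the other members.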

How the data were processed

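The deposited values were UMI counts per gene and cell, which the authors made from 5′ libraries with Cell Ranger 3.0.2 on mm10, with no normalization. Per the labels each condition had 1 library, with totals of 5952445, 19252211, 12077209 and 16017797 UMIs. All cells of the 4 files were used, from 500 UMIs up. Cells were gated by marker lists that exclude the 10 genes, and 1907 of 9300 cells fell in no gate. UMIs were summed by class and library and given per 1000000 UMIs of that class. Genes with fewer than 50 UMIs over both libraries were left out of the 2-fold counts, and the limit for a count of 0 was 3 UMIs. No test across samples was possible. Calculations used scipy 1.17.1 and pandas 2.3.3 under Python 3.11.15, with scanpy 1.11.5 and igraph 0.11.9 for graph clusters, and were tested on simulated data.

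The text names all 10 genes, the genes of 7 lists by function that passed 2-fold, and genes near each member by correlation. Members and lists were chosen with earlier results of these data known. The gate was revised after member values had been seen, by limits on hepatocyte and progenitor markers, and its first version is an added alternative. The split by Cebpe and Cxcr2, the minimum of 10 UMIs, the single cell left out and the genes set beside Mmp9 were also chosen after the values were seen.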

Additional observations from a re-analysis of the deposited data

How the results depend on the processing

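No difference was tested, so alternatives could move a value or its side of 2-fold but not the outcome of a test. The log2 ratios of the 10 genes summed in neutrophils were small and moved beyond counting error under several alternatives, with a change of sign where it is printed. ConA+Veh over Naïve, 0.47, became -0.15 with cells carrying markers of another class kept, 0.14 with the first version of the gate, 0.33 as a mean of cell shares, 0.67 as mean UMIs per cell and 0.63 with the members left out of the total. ConA+TCDD over ConA+Veh, -0.06, became -0.091 with 4 markers, -0.094 with other-class cells kept, -0.091 with members left out of the total, -0.27 with the first gate, -0.13 without the cell richest in Camp, -0.11 without shared barcodes, -0.21 as a mean of shares and -0.15 as mean UMIs per cell. ConA+FICZ over ConA+Veh, -0.12, became -0.14 with 4 markers, graph clusters or without ribosomal and mitochondrial genes, 0.45 with other-class cells kept, 0.19 with the first gate, -0.15 as mean UMIs per cell and -0.17 with members left out of the total. The cause was not tested. Progenitors over neutrophils became -6.89 (ConA+TCDD) and -8.99 (ConA+FICZ) as means of shares. Lymphocytes over neutrophils became -11.94, -14.05, -13.62 and -12.18 without cells above the 95th percentile of UMIs, -11.79, -13.05, -12.21 and -10.99 as means of shares, -12.26 in ConA+FICZ without marker-bearing cells, and -12.82, -14.72 and -14.25 in Naïve, ConA+Veh and ConA+FICZ without Lcn2 and Mmp9. With a minimum of only 1 UMI in each library the counts past 2-fold were 309 higher and 1553 lower, 1373 and 342, and 852 and 1204 in the 3 comparisons. Of 370 alternative values for single members, 357 kept their sign and 349 their side of 2-fold. Some of these could not differ from the main value. Leaving out cells above the 95th percentile of UMIs removed no neutrophil, and leaving out shared barcodes removed none from Naïve or ConA+Veh. Such values are counted in the 370 and among the 12 or 13 alternatives of each ratio. Slpi in ConA+Veh over Naïve lost 2-fold in 5 settings, at 0.55 to 0.94, and Ngp and Ltf under TCDD also with 6 markers, at 0.45 and 0.09. No paired analysis was possible because each condition has 1 library. The 21 Naïve neutrophils limit every ratio against them.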
